A study of Mus musculus with 16 samples.

Results

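The genes described here are the histone genes, taken as every probe set whose gene symbol starts with one of the prefixes of the histone families (Hist1h, Hist2h, Hist3h, Hist4h, H1f, H2af, H2ac, H2bc, H3c, H3f or H4c). The rule found 59 of 19505 measured genes. They divide into 50 genes of the replication-dependent histone clusters (4 H1, 12 H2A, 13 H2B, 10 H3 and 11 H4 genes), 3 replacement variants (H1f10, H3f3a and H3f3b), 5 germline histones and H2be, the product of H2bc21 (older symbol Hist2h2be), which is kept apart. Of the cluster genes, 43 lie on chromosome 13 and 7 on chromosome 3, the chromosome of H2bc21. H3c14 and H3c15 held the same value in every library, so the 59 genes give 58 sets of values that are not identical. Some of these were still close to each other, such as those of H3c10 and H3c11.

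The study asked which odorant receptors respond to bourgeonal, an aldehyde with a floral smell. C57BL/6 S100a5-tauGFP mice of both sexes, 7 to 12 weeks old, were kept in clean air chambers for 40 hours and, from hour 26 on, were given pulses of bourgeonal or of filtered air as the vehicle. Cells of the olfactory mucosa were sorted by GFP and their RNA was hybridised to Clariom S arrays. All mice carried the reporter, in which GFP follows S100a5, a calcium-binding protein gene of olfactory sensory neurons whose expression depends on activity, so a gate holds neurons by their recent activity together with any cell of the mucosa that falls into it.

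The 16 libraries form 4 groups of 4: odor titled GFP-, odor titled GFP+, vehicle titled GFP- and vehicle titled GFP+. Each library is a pool of 3 mice, and each of the 8 pools gave both gates. Each of the 16 libraries is labelled with one gate in its title and the other gate in its cell type field, and S100a5 was higher in the libraries titled GFP- (gate ratio 1.02 ± 0.10, SE of the limma fit, adjusted p = 2.16e-05). The gates are therefore called by title, and the gate ratio is the log2 value in the titled GFP- library minus that in the titled GFP+ library of a pool.

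Nucleosomes wrap DNA around H2A, H2B, H3 and H4, and linker H1 binds between them. The cluster genes are transcribed in S phase from multicopy clusters, and most of their mRNAs end in a stem-loop in place of a poly(A) tail, whereas replacement variants such as H3.3 are made throughout the cell cycle and also in cells that no longer divide. H2be is an H2B variant known from mouse olfactory sensory neurons, where its amount has been tied to the activity of the neuron and to its life span. Olfactory neurons are replaced throughout life from dividing basal cells, so a sort of the mucosa can hold both cycling and long-lived cells.

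Of the 59 genes, 53 lay above a background guide in at least 1 of the 4 groups and 52 in all 4, the guide being the 95th percentile of the vomeronasal receptor genes, which reached at most 4.97. The 6 that stayed below it everywhere were H1f5, H3c1, H1f6, H1f7, H1f8 and H2bc1. H2bc3 was above it in 3 groups. All values are deposited log2 values, which compare a gene between libraries and do not rank different genes.

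H2be RNA lay in the same narrow range in both gates. In odor pools H2bc21 had 15.28, 15.41, 15.37 and 15.25 in the titled GFP- libraries, against 15.22, 15.43, 15.56 and 15.29 in the titled GFP+ libraries. In vehicle pools it had 15.10, 15.39, 15.27 and 15.45 in the titled GFP- libraries, against 15.32, 15.45, 15.38 and 15.51 in the titled GFP+ libraries. All 4 groups overlapped, with a lowest value of 15.10 and a highest of 15.56. Over all pools the mean was 15.32 ± 0.11 in titled GFP- libraries and 15.40 ± 0.11 in titled GFP+ libraries (SD, n = 8 each).

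The H2bc21 gate ratio was -0.08 ± 0.09 (SD, n = 8 pools), between -0.22 and 0.06, and lay below 0 in 7 of 8 pools. An exact two-sided sign-flip test over the pools gave p = 0.03125, where 0.0078125 is the smallest p that 256 flips allow. In the limma fit over all genes the ratio did not pass (adjusted p = 0.468, interval -0.25 to 0.09). The sign depended on scaling: after every library was centred on its own median the ratio was 0.27 and was above 0 (limma adjusted p = 0.0089). The same centring moves the median gate ratio of all genes to 0.46, against 0.10 as deposited. It adds the same amount to every gene, so H2bc21 stays at -0.18 relative to that median by construction.

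H2ac20, the H2A gene next to H2bc21, gave a gate ratio of -0.11 (limma adjusted p = 0.321). Its levels were 13.82 to 14.13 (median 13.96) in titled GFP- libraries and 13.83 to 14.31 (median 14.09) in titled GFP+ libraries. These ranges overlapped. Median centring turned this ratio to 0.24 as well.

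**Figure D1:**
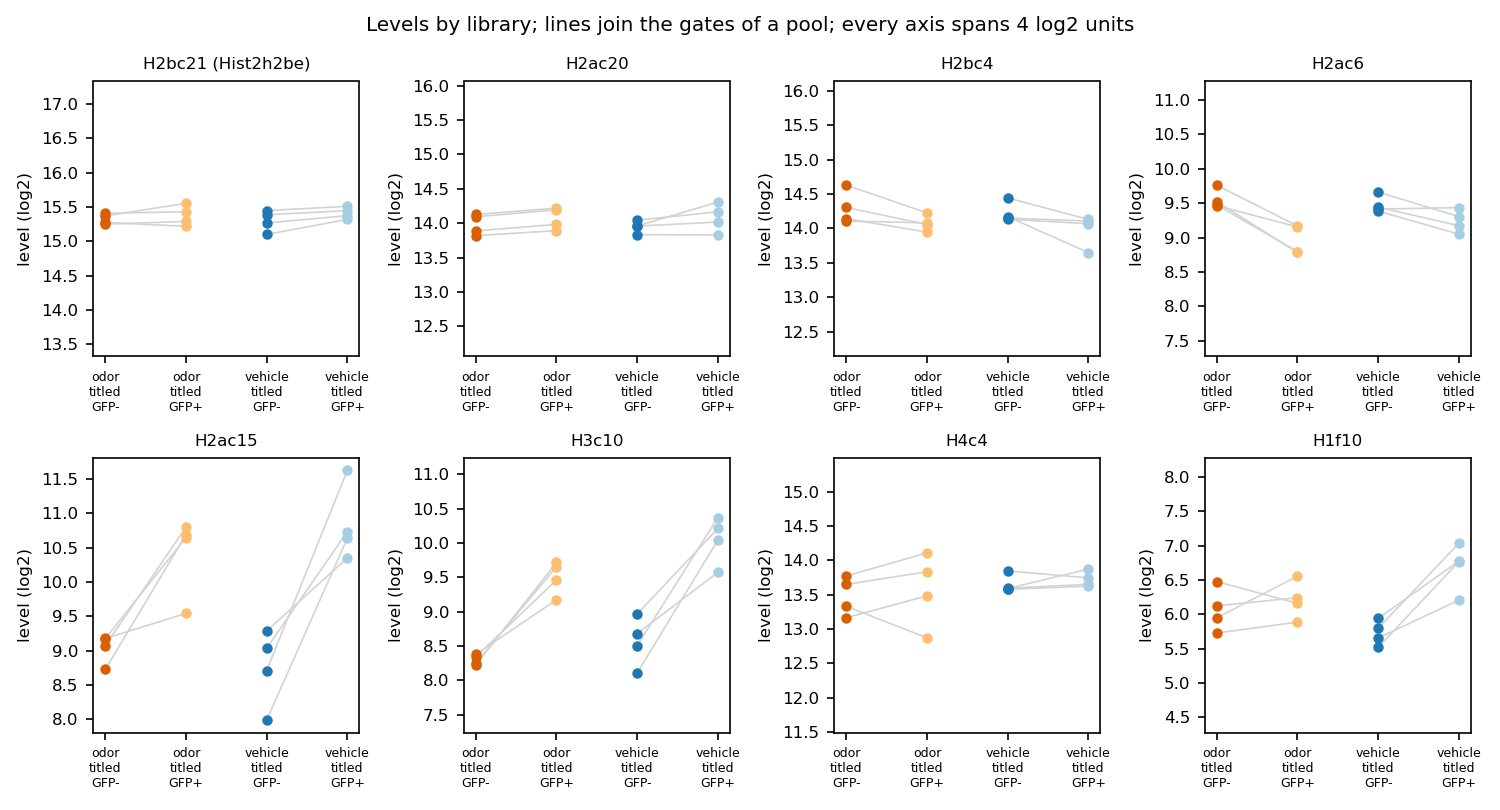
Deposited log2 level of 8 histone genes in each library, with the titled GFP- group to the left of the titled GFP+ group for odor and vehicle pools, grey lines joining the gates of a pool, and each vertical axis spanning 4 log2 units. H2bc21, H2ac20 and H4c4 overlap between the gates, H2ac15 and H3c10 are lower in all 8 titled GFP- libraries, and H2ac6 is higher in the titled GFP- library of 7 of 8 pools.

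Among the replication-dependent genes, most H2A, H2B and H3 genes of the clusters were lower in titled GFP- libraries, and no H4 gene passed the test. In all, 19 of the 50 cluster genes did not pass, as H2bc21 did not. Over all pools 32 of the 59 histone genes were lower, 1 was higher and 26 did not pass (limma adjusted p under 0.05). Across all genes tested 13.2% were lower and 14.4% higher. The median gate ratio of the 59 genes was -0.51, beside 0.10 for all genes. The 30 cluster genes that fell were between 1.35-fold and 3.32-fold lower, with a median of 1.88-fold.

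Among the cluster types, 9 of 12 H2A genes fell (median ratio of the type -1.04), as did 10 of 13 H2B genes (median -0.62), 9 of 10 H3 genes (median -0.93) and 2 of 4 H1 genes (median -0.51). With dim genes left out, which drops H1f5, 1 H1 gene fell and the H1 median was -0.22. Of the 11 H4 genes 0 passed in either direction, with a median of -0.12 and 2 at an unadjusted p under 0.05, which 39.9% of all genes reached. With the intensity trend 2 H4 genes fell, 3 did without odor replicate 1 and 1 did without vehicle replicate 1. On chromosome 3, 4 of 7 cluster genes fell (median -0.61), and on chromosome 13, 26 of 43 fell (median -0.71). Relative to the median of all genes, the type medians were -1.14 for H2A, -0.72 for H2B, -1.04 for H3, -0.61 for H1 and -0.22 for H4.

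The same counts depended on scaling in part. With each library centred on its median, 9 H2A, 8 H2B, 8 H3 and 2 H1 genes were still lower, and 3 H2A, 2 H2B, 4 H4 and 1 H1 gene were then higher. Under that scaling 88.9% of the calls over all genes were rises, against 52.2% as deposited. Centring adds the same amount to the gate ratio of every gene, so the type medians relative to the median of all genes cannot change.

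**Figure D2:**
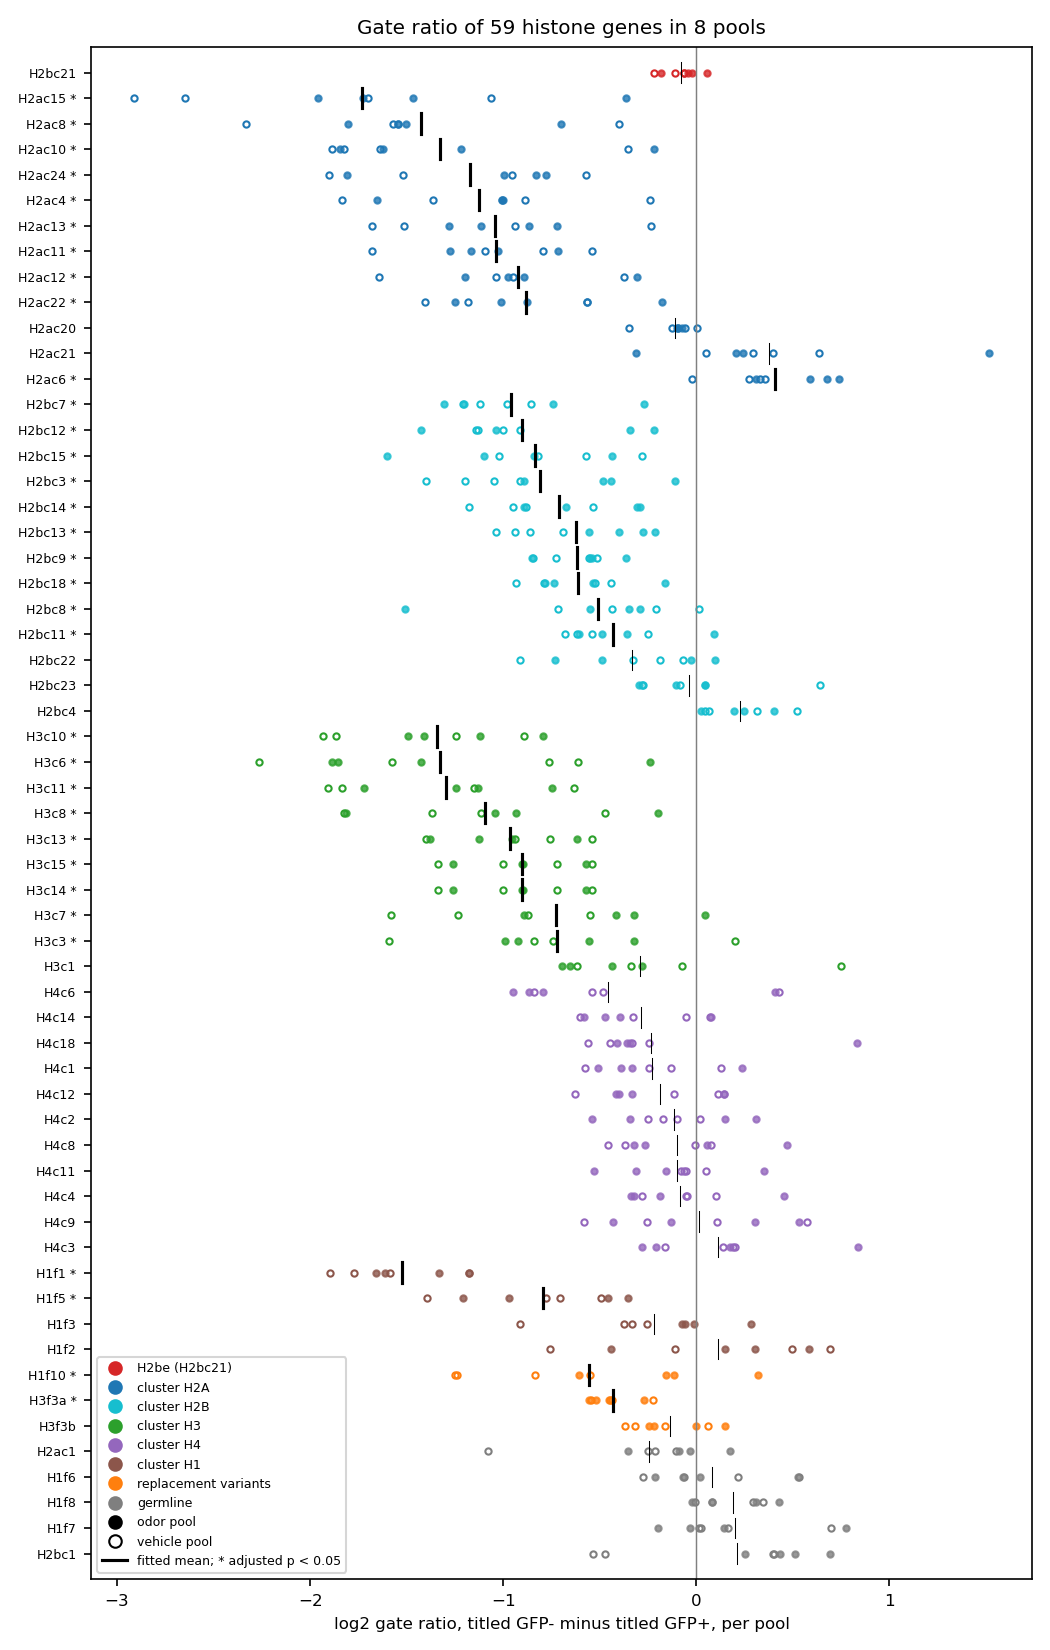
Log2 gate ratio (titled GFP- minus titled GFP+) of each of the 59 histone genes in each of 8 pools, filled circles for odor and open circles for vehicle pools, with a vertical bar at the fitted mean and a star where the limma adjusted p is under 0.05. Most cluster H2A, H2B and H3 genes lie left of 0, and H2ac6 is the starred gene to the right of 0. H2bc21 lies close to 0 in every pool (-0.22 to 0.06). The H4 genes spread more widely around 0, with pool medians from -0.46 to 0.35 that were below 0 in 6 of 8 pools.

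Many falls were seen in every pool. In all 8 pools the titled GFP- library was the lower one for 27 of the 59 genes, where 10.6% of all genes did so. For 14 of the 59, all 8 titled GFP- libraries lay below all 8 titled GFP+ libraries, where 6.9% of all genes did so. The size varied between pools: the median ratio of the 50 cluster genes was -0.21, -0.76, -0.82 and -0.54 in odor pools 1 to 4 and -0.33, -0.80, -0.90 and -0.57 in vehicle pools 1 to 4. By pool number these medians ranked in the same order under both treatments. The labels do not say what a number stands for, and the cause of this order was not tested.

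By type, the median level per library showed where the gates separated. For H2A it was 10.57 to 10.99 in odor titled GFP- libraries, against 11.26 to 12.13 in odor titled GFP+ libraries. In vehicle pools the H2A medians were 10.50 to 11.21 in titled GFP- libraries, against 11.77 to 12.57 in titled GFP+ libraries. H3 medians did not overlap either, at 8.18 to 8.35 in odor titled GFP- and 9.12 to 9.75 in odor titled GFP+ libraries, and 8.12 to 8.96 in vehicle titled GFP- and 9.42 to 10.37 in vehicle titled GFP+ libraries. H4 medians overlapped: 11.95 to 12.51 in odor titled GFP- against 12.03 to 12.92 in odor titled GFP+ libraries, and 12.20 to 12.48 in vehicle titled GFP- against 12.37 to 12.84 in vehicle titled GFP+ libraries.

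**Figure D3:**
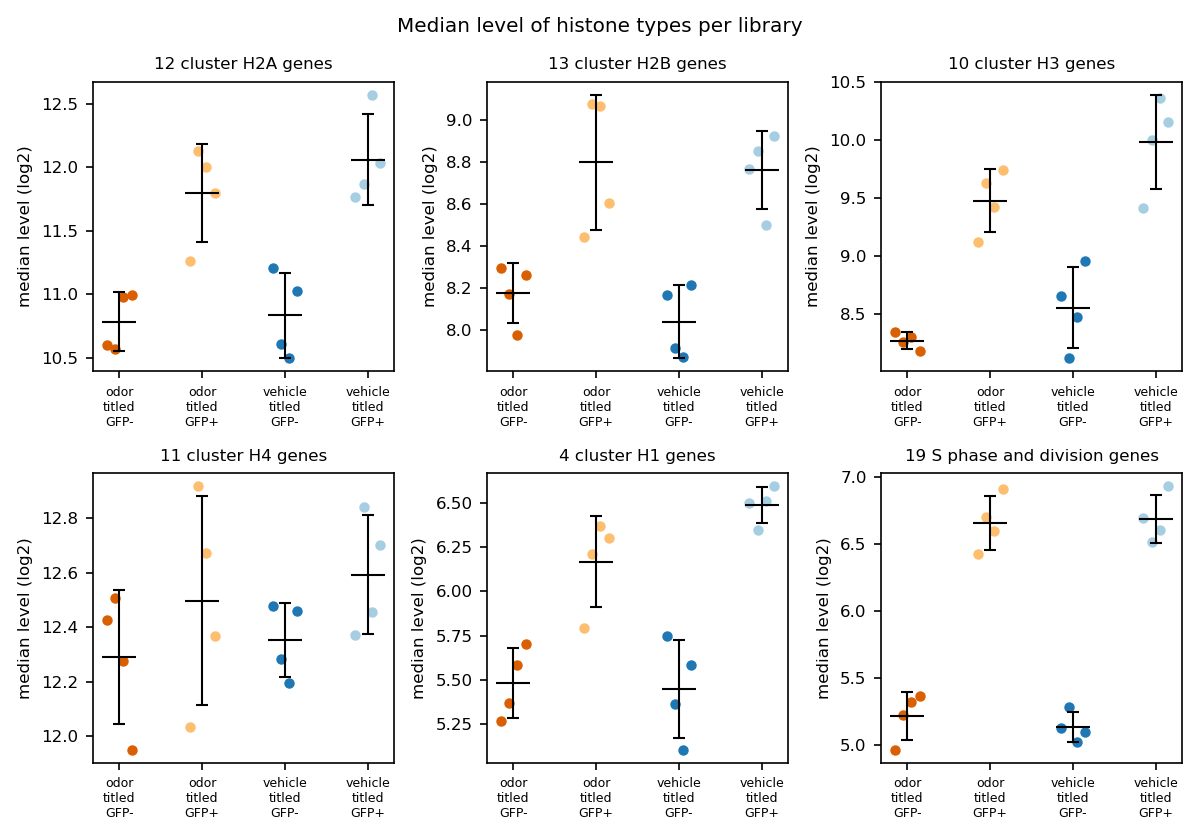
Median deposited log2 level of the genes of each cluster histone type, and of 19 S phase and cell division genes, in each library of the 4 groups (points), with the group mean and SD (bars, n = 4 libraries). The gates separate for H2A, H2B, H3, H1 and the S phase genes and overlap for H4. For H1 this holds for the median of 4 genes, while their mean level overlaps between the gates. With odor that mean is 5.12 to 6.60 in titled GFP- and 5.96 to 6.84 in titled GFP+ libraries. The vertical axes do not start at 0 and differ between panels.

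H2ac15, a cluster H2A gene, had the lowest gate ratio of the 59. In odor pools its levels were 9.18, 9.07, 8.73 and 9.18 in titled GFP- libraries, against 9.54, 10.80, 10.69 and 10.65 in titled GFP+ libraries. In vehicle pools they were 9.29, 7.99, 8.71 and 9.03 in titled GFP- libraries, against 10.35, 10.64, 11.63 and 10.74 in titled GFP+ libraries. Every titled GFP- library lay below every titled GFP+ library, and odor pool 1 showed the smallest gap. The ratio was -1.73 ± 0.23 (SE, limma adjusted p = 0.00019).

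H3c10, a cluster H3 gene, had 8.38, 8.22, 8.34 and 8.24 in odor titled GFP- libraries, against 9.17, 9.71, 9.46 and 9.65 in odor titled GFP+ libraries. In vehicle pools it had 8.68, 8.10, 8.50 and 8.96 in titled GFP- libraries, against 9.57, 10.04, 10.37 and 10.21 in titled GFP+ libraries. The 2 gates did not overlap, and the ratio was -1.34 ± 0.14 (SE, limma adjusted p = 2.58e-05).

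The linker gene H1f1 ranged from 4.63 to 5.67 (median 5.20) in titled GFP- libraries and from 5.97 to 7.14 (median 6.82) in titled GFP+ libraries. The groups did not overlap, and its ratio was -1.53 ± 0.10 (SE, limma adjusted p = 1.19e-06), although several of its titled GFP- values lay near the background guide. The list of largest falls was completed by H2ac8 (-1.42), H3c6 (-1.33), H2ac10 (-1.33), H3c11 (-1.30) and H2ac24 (-1.17). Each of these was lower in all 8 pools. H1f5 also fell (-0.80, limma adjusted p = 0.00102) while below the guide in every group.

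Of the H3 genes, H3c14, which holds the same values as H3c15, had 12.31 to 12.68 (median 12.48) in titled GFP- libraries and 13.08 to 13.93 (median 13.36) in titled GFP+ libraries. There was no overlap and the ratio was -0.90 (limma adjusted p = 0.000138). H4c4, an H4 gene, had 13.16 to 13.85 (median 13.59) in titled GFP- libraries and 12.87 to 14.11 (median 13.70) in titled GFP+ libraries, with a ratio of -0.08 that turned to 0.27 with median centring.

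H2ac6 was the histone gene that rose. In odor pools it had 9.52, 9.46, 9.47 and 9.76 in titled GFP- libraries, against 8.78, 9.15, 8.80 and 9.17 in titled GFP+ libraries. In vehicle pools it had 9.41, 9.44, 9.38 and 9.66 in titled GFP- libraries, against 9.44, 9.17, 9.05 and 9.30 in titled GFP+ libraries. The odor gates did not overlap, the vehicle gates did, and 7 of 8 pools were higher. The ratio was 0.41 ± 0.09 (SE, limma adjusted p = 0.00603).

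H2bc4, the H2B gene beside H2ac6, had 14.11 to 14.63 (median 14.16) in titled GFP- libraries and 13.65 to 14.23 (median 14.08) in titled GFP+ libraries. It was higher in 8 of 8 pools, by 0.03 to 0.52, and its mean ratio of 0.23 did not pass (limma adjusted p = 0.0878) but did with an intensity trend (0.0123). H2ac21 had a positive ratio too, 0.38 (limma adjusted p = 0.13), with 1.52 in odor pool 1.

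Many H2A and H2B genes lie head to head and share a promoter region. In 9 neighbouring pairs, separated by less than 1000 bases and picked after the values had been seen, both genes fell in 5, and the H2A gene had the more negative ratio in 8. In the pair H2ac15 and H2bc15 the ratios were -1.73 and -0.83, both passing. In the pair H2ac6 and H2bc4 both ratios were positive, 0.41 and 0.23.

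The promoter windows of 4 genes are printed to set the paired genes with the largest fall beside the gene that rose and an H4 gene. They are RefSeq sequences of GRCm38.p6, from 250 bases before to 50 after the gene's start, given 5′ to 3′ on the strand of the gene; capitals mark the octamer ATTTGCAT, the CCAAT box CCAAT and the TATA box TATAAA or their reverse complements. The windows lie at chr13:21753863-21754162 on the minus strand (H2ac15), chr13:21753826-21754125 on the plus strand (H2bc15), chr13:23683910-23684209 on the minus strand (H2ac6) and chr13:23581318-23581617 on the plus strand (H4c4). Those of H2ac15 and H2bc15 share 263 bases read from opposite strands.
H2ac15: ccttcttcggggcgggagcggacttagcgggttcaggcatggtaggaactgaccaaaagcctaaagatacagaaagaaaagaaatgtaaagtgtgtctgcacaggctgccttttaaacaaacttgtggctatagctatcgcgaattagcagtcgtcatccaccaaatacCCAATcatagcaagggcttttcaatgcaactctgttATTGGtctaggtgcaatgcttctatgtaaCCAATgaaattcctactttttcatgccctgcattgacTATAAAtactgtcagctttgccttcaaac
H2bc15: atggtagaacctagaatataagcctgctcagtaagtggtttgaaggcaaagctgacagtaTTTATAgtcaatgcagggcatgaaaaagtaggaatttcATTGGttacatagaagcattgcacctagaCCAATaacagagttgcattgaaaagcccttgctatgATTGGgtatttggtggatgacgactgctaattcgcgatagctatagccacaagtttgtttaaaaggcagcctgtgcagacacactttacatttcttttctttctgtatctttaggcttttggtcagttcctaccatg
H2ac6: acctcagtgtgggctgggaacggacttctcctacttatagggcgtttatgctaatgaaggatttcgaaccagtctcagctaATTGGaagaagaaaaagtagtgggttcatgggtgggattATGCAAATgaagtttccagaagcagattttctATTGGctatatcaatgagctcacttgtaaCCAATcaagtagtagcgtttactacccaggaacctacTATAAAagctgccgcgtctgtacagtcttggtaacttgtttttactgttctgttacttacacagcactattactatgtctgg
H4c4: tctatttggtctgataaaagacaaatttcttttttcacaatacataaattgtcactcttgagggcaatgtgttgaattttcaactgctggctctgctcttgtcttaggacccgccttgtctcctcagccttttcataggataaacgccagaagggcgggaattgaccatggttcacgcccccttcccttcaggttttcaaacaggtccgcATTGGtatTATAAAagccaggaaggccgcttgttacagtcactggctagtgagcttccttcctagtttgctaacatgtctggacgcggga

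An entry was found for 54 of the 59 genes, and not for H2bc21, H2bc4, H3c1, H3c7 and H4c14. CCAAT stood on either strand in all 36 windows of cluster H1, H2A, H2B and H3 genes and in 3 of 10 H4 windows, against 37.4% of 32851 promoters in the table. The octamer stood in 5 of 12 H2A and 5 of 12 H2B windows, in 0 of the H1, H3 and H4 windows, and in 1.74% of all promoters. TATAAA stood in 26 of 46 cluster windows and in 13.6% of all promoters. Of the printed windows H2ac6 holds 1 octamer and 3 CCAAT boxes, H2ac15 and H2bc15 hold 3 CCAAT boxes and no octamer, and H4c4 holds 1 CCAAT box. Overlapping windows of neighbouring genes count some matches for both genes.

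Among the replacement variants, H3f3a and H3f3b encode the same H3.3 protein. H3f3a had 12.57, 12.87, 12.65 and 12.56 in odor titled GFP- libraries, against 13.03, 13.14, 13.17 and 13.11 in odor titled GFP+ libraries. In vehicle pools it had 12.57, 12.69, 12.50 and 12.49 in titled GFP- libraries, against 13.01, 13.14, 12.72 and 13.04 in titled GFP+ libraries. It was lower in all 8 pools, with a ratio of -0.43 (limma adjusted p = 0.00259). That call was lost with median centring (-0.08, adjusted p = 0.402). H3f3b had a ratio of -0.14 (limma adjusted p = 0.277), which became 0.22 with centring.

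H1f10, a linker variant expressed outside S phase, had a gate ratio of -0.55 (limma adjusted p = 0.00655, and 0.138 with median centring). In odor pools it had 5.95, 6.12, 5.73 and 6.48 in titled GFP- libraries, against 6.55, 6.24, 5.88 and 6.16 in titled GFP+ libraries. In vehicle pools it had 5.79, 5.94, 5.52 and 5.65 in titled GFP- libraries, against 7.03, 6.77, 6.76 and 6.20 in titled GFP+ libraries. The vehicle gates did not overlap and the odor gates did.

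H1f2, a cluster linker histone, differed more between pools than between gates. In odor pools 1 to 4 it had 10.07, 8.19, 6.24 and 11.52 in titled GFP- libraries, against 9.76, 8.04, 6.68 and 10.93 in titled GFP+ libraries. In vehicle pools 1 to 4 it had 10.35, 8.36, 8.20 and 9.71 in titled GFP- libraries, against 10.46, 7.66, 7.70 and 10.47 in titled GFP+ libraries. Both gates of a pool were high or low together: the pool means covered 4.76 log2 units, while the widest gap between the gates of a pool was 0.76. Pools of the same number went together too. Under both treatments, pools 1 and 4 were higher than pools 2 and 3 in both gates, although they held different mice.

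The SD of the H1f2 pool means within treatments was 1.74, and 3 of the 19505 genes had a larger one. The median was 0.21 over all genes and 0.20 over the histone genes, and the largest among the other histone genes was 0.32. This spread was noticed from the values, and its cause was not tested. The gate ratio of H1f2 was 0.12 (limma adjusted p = 0.638), and the odor and vehicle groups overlapped.

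**Figure D4:**
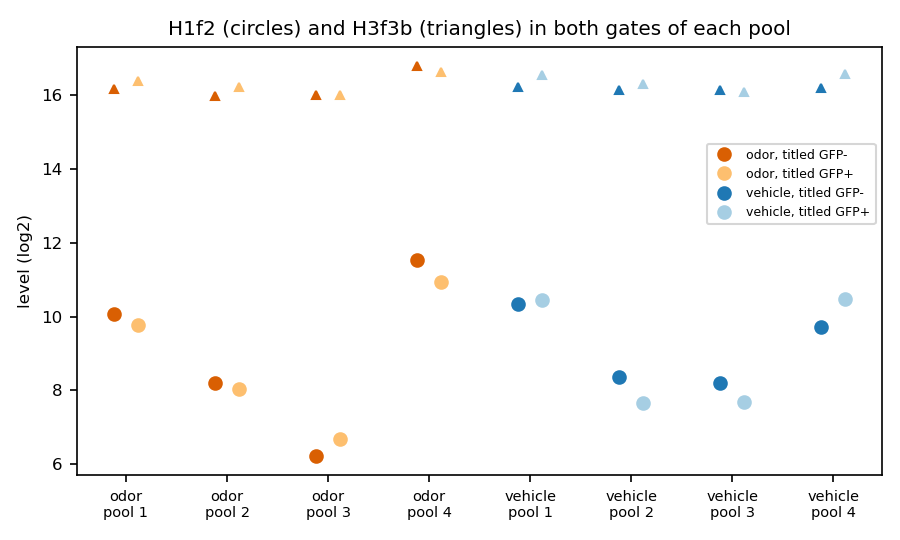
Deposited log2 level of H1f2 (circles) and H3f3b (triangles) in the titled GFP- library (left) and the titled GFP+ library (right) of each of the 8 pools. H1f2 covers 6.24 to 11.52 with both gates of a pool close together, and H3f3b covers 15.95 to 16.76.

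The 5 germline histones (H1f6, H1f7, H1f8, H2ac1 and H2bc1) had ratios between -0.24 and 0.21, and 0 passed in either direction in the limma fit, as did 0 at an unadjusted p under 0.05. Of these H2ac1 alone was above the background guide. The 7 H2A variants whose older symbols begin with H2af now carry other names and fall outside the prefixes. H2ax, the variant phosphorylated at DNA breaks, had 10.29 to 10.84 (median 10.38) in titled GFP- libraries and 11.49 to 12.07 (median 11.79) in titled GFP+ libraries. Its gates did not overlap and its ratio was -1.32 (limma adjusted p = 1.54e-05). H2az1 had a ratio of -0.30 that passed narrowly (limma adjusted p = 0.0348), turned to 0.05 with median centring, and missed the threshold without any 1 of 6 pools (odor 1, 2 or 3, or vehicle 1, 2 or 4). The other 5, H2aj, H2az2, Macroh2a1, Macroh2a2 and Macroh2a3, did not pass.

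Lists of genes that work with histones were set beside the same shares of all genes, 13.2% lower and 14.4% higher. Of 19 S phase and cell division genes 16 (84.2%) were lower and 0 higher in titled GFP- libraries, with a median ratio of -1.08, among them the proliferation marker Mki67 (-5.45), the ribonucleotide reductase subunit Rrm2 (-2.35) and cyclin A2, Ccna2 (-1.85). Of 21 histone chaperones and depositors 5 (23.8%) were lower, led by Asf1b (-1.87), a chaperone of new H3 and H4, with Nasp (-0.43) and Npm1 (-0.40), and the median of the list was -0.01. In odor pools alone 1 chaperone fell and in vehicle pools alone 2 did (4.76% and 9.52%), no more than the share of all genes there (10.2% and 9.95%). Another 1 rose in odor pools and 0 in vehicle pools, where 7.82% and 6.23% of all genes did. Of 13 genes for transcription and 3′ processing of histone mRNA, the S phase transcription factor E2f1 was lower (-0.51), the U7 snRNP subunit Lsm11 was higher (0.32), and 11 did not pass, so that 7.69% passed in each direction, below the share of all genes. E2f1 lay below the background guide in both titled GFP- groups (means 4.52 with odor and 4.29 with vehicle). Its ratio was -0.16 in odor pools and -0.87 in vehicle pools.

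Markers of other cells moved with the gate as well. Of the neutrophil markers 12 of 12 were lower in titled GFP- libraries, with library medians of 4.43 to 5.05 in odor titled GFP- and 11.44 to 12.79 in odor titled GFP+ libraries, and of 4.18 to 4.96 in vehicle titled GFP- and 10.89 to 12.18 in vehicle titled GFP+ libraries. Lower as well were 7 of 7 macrophage, 6 of 6 microvillar, 4 of 6 immature neuron, 4 of 5 sustentacular, 3 of 4 neural progenitor and 2 of 2 erythroid markers. Of 9 mature sensory neuron markers 2 were higher and 0 lower, Omp giving 0.04, and 4 of 4 activity-induced genes were higher, while 2 of 2 genes of low-activity neurons were lower. In these bulk libraries fewer cells of a type and less RNA per cell cannot be told apart, and the part of these cells in the histone ratios was not tested.

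Gate ratios were also taken for each treatment from the same fit of all libraries, so both treatments share 1 estimate of the error for each gene. In odor pools 27 of 59 fell and 1 rose, where 10.2% and 7.82% of all genes did (18.1% in either direction). In vehicle pools 31 fell and 0 rose in the limma fit, where 9.95% and 6.23% of all genes did. At an unadjusted p under 0.05 there were 33 of 59 in vehicle pools in either direction, where 28.6% of all genes did so. Of the genes that fell, 26 did so under both treatments, 1 passed only in odor pools and 5 passed only in vehicle pools. The count in odor pools was 15 without odor replicate 2 and 13 without odor replicate 3, in fits with fewer samples. The share of all genes in those fits is not given here, so these counts are not read as particular to histone genes.

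Odor did not change the gate ratio of any histone gene past the threshold: 0 of 59 passed in the limma fit, where 0% of all genes did, and 5 had an unadjusted p under 0.05, beside 1109 of 19505 genes (5.69%). The differences, odor minus vehicle, lay between -0.45 and 0.83. The smallest p belonged to H1f10, with ratios of -0.14 in odor pools and -0.97 in vehicle pools and a difference of 0.83 ± 0.24 (SE, adjusted p = 0.823). H2bc3 had -0.48 in odor pools and -1.14 in vehicle pools, and H2bc13 had -0.36 in odor pools and -0.88 in vehicle pools, with the same adjusted p for their differences. In vehicle titled GFP- libraries H2bc3 lay below the background guide (mean 4.68, guide 4.97). H2bc21 had -0.05 in odor pools and -0.11 in vehicle pools, a difference of 0.07 with an interval of -0.28 to 0.41 (exact two-sided permutation test over pools, p = 0.343, smallest possible 0.0286).

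**Figure D5:**
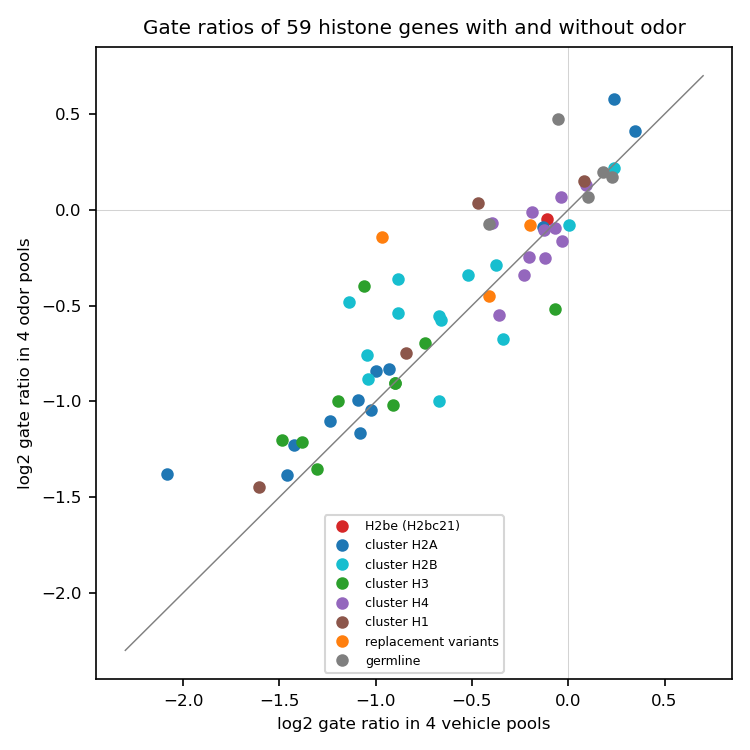
Fitted log2 gate ratio (titled GFP- minus titled GFP+) of the 59 histone genes in the 4 odor pools (vertical axis) against the 4 vehicle pools (horizontal axis), coloured by class, with the line of equal ratios. Most points lie near the line, H1f10 is the orange point at -0.14 in odor pools and -0.97 in vehicle pools, and no difference passes the test.

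Within a gate, odor was compared with vehicle on 8 libraries. In titled GFP- libraries 0 of 59 histone genes passed in the limma fit, where 0% of all genes did, and 1 had an unadjusted p under 0.05, beside 869 of all genes (4.46%). In titled GFP+ libraries 0 passed, where 0.0103% of all genes did, and 4 had an unadjusted p under 0.05, beside 827 of all genes (4.24%). With the replicate number as a block 0 histone genes passed there, and 7 had an unadjusted p under 0.05, beside 1168 of all genes (5.99%). For H2bc21 odor minus vehicle was 0.03 (interval -0.28 to 0.34) in titled GFP- libraries and -0.04 (interval -0.35 to 0.27) in titled GFP+ libraries.

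In titled GFP+ libraries 45 of 59 histone genes (76.3%) had an odor minus vehicle difference below 0, beside 51.1% of all genes, and the median was -0.12. Among them were all 12 H2A and 9 of 10 H3 genes of the clusters, but 7 of 19 S phase genes. The count rested on 1 library: without odor replicate 1 it was 28 of 59 (47.5%), with a median of 0.01. The genes share their libraries, so the counts are not independent of each other.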

How the data were processed

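The deposited log2 expression values of 16 Clariom S arrays were used; per the submitters' processing notes, the authors used Affymetrix Expression Console. Its version, the summarisation, the genome build and the priming of the cRNA were not given in the sources used here. Precision is limited by the number of arrays, and ratios are compressed near background. Of 28846 probe sets, 6546 with neg or pos in the ID and 94 AFFX or ERCC controls were left out. One gene was named by 19572 and none by 2634. The probe set with the highest mean stood for a gene, which left 19505 genes. Probes for near-identical histone paralogs may bind each other's RNA, which was not tested, and most cluster histone mRNAs lack a poly(A) tail. Classes were assigned through older symbols in the RefSeq table (GRCm38.p6), because the annotation uses newer symbols than the written rule.

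limma 3.58.1 in R 4.3.3 (lmFit, eBayes) was fitted to the 16 libraries with a block for the pool, for the gate ratios and their difference, and to 8 libraries without a block for odor against vehicle within a gate. Tests were two-sided, adjusted by Benjamini-Hochberg over 19505 genes, with a threshold of 0.05. They were also run on simulated data with independent noise. Those data held no differences between pools, so they do not check the pairing. Motifs were searched and H2bc21 was tested exactly in Python 3.11.15 with scipy 1.17.1.

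The gates of a pool were taken as paired because 24 mice in pools of 3 give 8 pools. After subtraction of group means, the gates of a pool correlated at 0.135 to 0.287 (odor) and 0.098 to 0.201 (vehicle). Same-numbered odor and vehicle libraries correlated at 0.088 to 0.161 (titled GFP-) and at 0.157 to 0.210 (titled GFP+), so in the second of these a fit with the number as a block is given beside the fit without it, although the labels do not say what a number stands for.

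The histone genes, classes and lists were chosen with earlier results of these data known. Named are H2bc21, the replacement variants, up to 8 cluster genes that rose and 8 that fell most among those passing, the gene with the highest mean of each type, the 3 smallest p in the odor difference, the H2A variants, up to 3 genes of each pathway list, and S100a5, Omp and Mki67. H2ac21, H1f5, H2bc15 and the genes below background were named after their values were seen. Alternatives were median centring, a filter on dim genes, the mean of probe sets, an intensity trend with robust estimation, other blocks, each pool left out and, added after seeing the data, H3c14 and H3c15 counted once.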

Additional observations from a re-analysis of the deposited data

Results flagged for a closer look

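Of 108 groups of 4 libraries tested for 27 named genes, 8 held a library far from the other 3, where chance gives about 1 in 20. Odor titled GFP+ replicate 1 was the lowest of its group for H2ac15 at 9.54 (the others 10.65 to 10.80), for H1f1 at 5.97 (6.75 to 6.83) and for H2ac8 at 8.37 (9.32 to 9.44). H1f1 was highest in vehicle titled GFP+ replicate 4 at 7.14. H2bc4 was highest in vehicle titled GFP- replicate 3 at 14.45 and lowest in vehicle titled GFP+ replicate 2 at 13.65. Vehicle titled GFP- replicate 4 was the highest of its group for H4c4 at 13.85 and for Macroh2a1 at 15.05. The values are log2 levels, and no cause was tested.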

How the results depend on the processing

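With median centring of each library 16 histone genes passed as higher over all pools, 10 were higher and 17 lower in odor pools, and 6 were higher in vehicle pools. Centring adds the same amount to the gate ratio of every gene in a comparison. Over all pools 88.9% of the calls across all genes were then rises, so these counts are not read as particular to histone genes. The intensity trend gave 2 higher over all pools. Leaving out each pool in turn gave 31 to 35 lower over all pools, 13 to 28 lower in odor pools and 25 to 32 lower in vehicle pools, with fewer samples in each fit. The shares of all genes in those fits are not given here. The H2bc21 ratio by pool turned to 0.27 with centring (exact p = 0.0078125) and lay between -0.099 and -0.060 with each pool left out, its exact p reaching 0.0625 without odor replicate 3 or any 1 vehicle pool. Centring also turned the gate ratios of H3f3b to 0.22, H2ac20 to 0.24, H4c4 to 0.27, H2aj to 0.15, H2az1 to 0.051, H2az2 to 0.18, Macroh2a1 to 0.34, Macroh2a2 to 0.27 and Macroh2a3 to 0.16. Macroh2a1, whose ratio was -0.01, ranged from -0.053 to 0.039 with each pool left out. Without the replicate block of the pool, 32 histone genes were lower and 1 higher over all pools, 25 were lower in odor pools and 31 in vehicle pools; with the replicate number as a block, 0 passed in the odor comparisons, while in titled GFP+ libraries those at an unadjusted p under 0.05 became 7, against 4 without that block. A filter on dim genes, the mean of probe sets and counting H3c14 and H3c15 once left the counts over all histone genes within 1.5 times; with the filter 1 H1 gene fell, against 2, and the H1 median was -0.22, against -0.51.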
